A study of Mus musculus with 4 samples.

Results

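The genes described here are Ly6g, Ly6c1, Ly6c2, Ly6a, Ly6e and Ly6i, 6 members of the Ly6 family of surface proteins among the 32285 genes of the deposited tables. They were taken by symbol, with no threshold on their values, because Ly6G and Ly6C are the antigens stained to sort myeloid-derived suppressor cells (MDSCs) and the others lie in the same family. The cells were MDSCs grown from mouse bone marrow in 40 ng/mL of GM-CSF and as much IL-6, and on day 4 the live CD11b+ cells were sorted and profiled. 2 libraries are described, 1 per group, both from wild-type (WT) cells: WT+PBS and WT+ISO. ISO is isoproterenol, a synthetic catecholamine, given at 10 µM from the start of culture, and PBS is the culture without it (0 µM). The treatment field of the labels names isoproterenol for both samples, and the sample titles and the study's methods, which place it in 1 of them, were followed. The labels do not say how many mice gave marrow to each culture. The other 2 libraries of the series entered the clustering of the cells and the naming of the clusters, but no level or ratio of theirs is reported here.

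Ly6 proteins are small, cysteine-rich proteins held on the outer face of the membrane by a GPI anchor. In mouse blood and marrow the Ly6G stain marks neutrophils, and the Ly6C stain is bright on inflammatory monocytes and dimmer on neutrophils, which is why the pair is used to divide MDSCs into a granulocytic and a monocytic class. Ly6a encodes Sca-1, a marker of stem cells that interferon also raises in other cells, and Ly6e is another gene of the family that interferon raises. A transcript count is not the stain: RNA and surface protein of a gene need not move together, and no protein was measured in these libraries.

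With 1 library per group, no test between conditions was possible. Levels are in CPM, the unique molecular identifiers (UMIs, counted molecules) of a gene in a library for each 1000000 UMIs counted there. Ranges in parentheses are 95% intervals that cover counting error only and leave out the spread between cultures or mice. Those of levels and ratios treat UMIs as independent and so leave out the spread between cells too. They are too narrow where a few cells hold most UMIs of a gene. The intervals are exact Poisson for a level, Clopper-Pearson for shares, and conditional binomial for log2 ratios. WT+PBS held 2210 cells and 24393687 UMIs, with a median of 8088 per cell, and WT+ISO 2264 cells and 29400468 UMIs, with a median of 10252. No barcode (0) was shared between libraries. Each carried its own multiplexing tag, so the cultures may share free RNA from a joint capture.

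All 6 genes lie on chromosome 15 within 204 kb (GRCm38.p6, chr15:74955025-75159128), in the order Ly6e, Ly6i, Ly6a, Ly6c1, Ly6c2 and Ly6g by position. RefSeq promoter sequence was at hand for 3 of the 6, Ly6g, Ly6c1 and Ly6c2, which are the genes behind the stains and are shown to let the upstream DNA of the granulocytic and the monocytic marker be compared. The lines give bases before the most upstream start among the RefSeq promoter sequences of each gene, 5′ to 3′ on its strand. Of each window of 250 bases, 0, 83 and 95 lay inside the annotated extent of Ly6g, Ly6c1 and Ly6c2 and are left out. The rest are chr15:75155011-75155260 on the plus strand (250 bases), chr15:75048921-75049087 on the minus strand (167 bases) and chr15:75112067-75112221 on the minus strand (155 bases). Capitals mark the longest run of bases that all 3 share.
Ly6g: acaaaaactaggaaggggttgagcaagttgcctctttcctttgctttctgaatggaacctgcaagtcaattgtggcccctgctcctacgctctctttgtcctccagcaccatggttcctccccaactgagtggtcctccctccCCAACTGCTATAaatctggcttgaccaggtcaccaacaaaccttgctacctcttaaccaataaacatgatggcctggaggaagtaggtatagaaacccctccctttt
Ly6c1: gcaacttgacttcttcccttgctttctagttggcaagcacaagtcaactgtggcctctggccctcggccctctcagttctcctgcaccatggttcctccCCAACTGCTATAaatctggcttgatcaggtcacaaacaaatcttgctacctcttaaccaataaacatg
Ly6c2: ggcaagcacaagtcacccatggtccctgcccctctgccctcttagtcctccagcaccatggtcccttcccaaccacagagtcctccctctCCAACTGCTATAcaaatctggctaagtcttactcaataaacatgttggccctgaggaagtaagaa
The shared run of 12 bases ended 95 bases before the annotated edge of Ly6g, 56 before that of Ly6c1 and 53 before that of Ly6c2. It was present in 6 of the 32851 promoter windows of the table, which belonged to 4 genes, these 3 and Ly6a2. Over the full 250 bases before the start site, on both strands, none of the 3 held the cAMP response element TGACGTCA (1.55% of all promoters held it), its shorter form TGACG (17.8%), the STAT motif TTCNNNGAA (7.02%) or the interferon motif GAAANNGAA (7.13%). TGACG is contained in TGACGTCA, so their shares overlap. An absent match says only that these letters are not in this window.

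Ly6c2 was the member with the most UMIs and Ly6c1 the one with the fewest, in both libraries. These tags are read from the 3′ end of the transcript, and reads that map to more than 1 gene are not counted. A difference between genes in CPM is therefore not taken as a difference in transcript level. Ly6c2 was counted at 1017 CPM (1004 to 1029) in WT+PBS, compared with 1253 (1240 to 1266) in WT+ISO. Ly6g was counted at 74.2 CPM (70.9 to 77.7) in WT+PBS, compared with 123 (119 to 127) in WT+ISO. Both stained genes were thus higher with ISO, beyond counting error. Cells with a UMI of Ly6c2 made up 77.6% of WT+PBS compared with 89.3% of WT+ISO, and those with one of Ly6g 28.5% and 39.5%.
Ly6a was counted at 27.1 CPM (25.1 to 29.2) in WT+PBS, compared with 39.8 (37.5 to 42.1) in WT+ISO. Ly6e was counted at 518 CPM (509 to 527) in WT+PBS, compared with 462 (454 to 469) in WT+ISO. Ly6i was counted at 15.5 CPM (13.9 to 17.1) in WT+PBS, compared with 9.63 (8.54 to 10.8) in WT+ISO, on 377 and 283 UMIs. Ly6e and Ly6i were thus lower with ISO and Ly6a higher, with intervals that did not overlap for any of the 3. The share of cells with a UMI of Ly6a did not follow its level: it was 8.87% (7.72 to 10.1) in WT+PBS, compared with 8.13% (7.03 to 9.33) in WT+ISO. Ly6c1 gave 5 and 13 UMIs in all, never more than 1 in a cell, and its intervals overlapped.

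**Figure D1:**
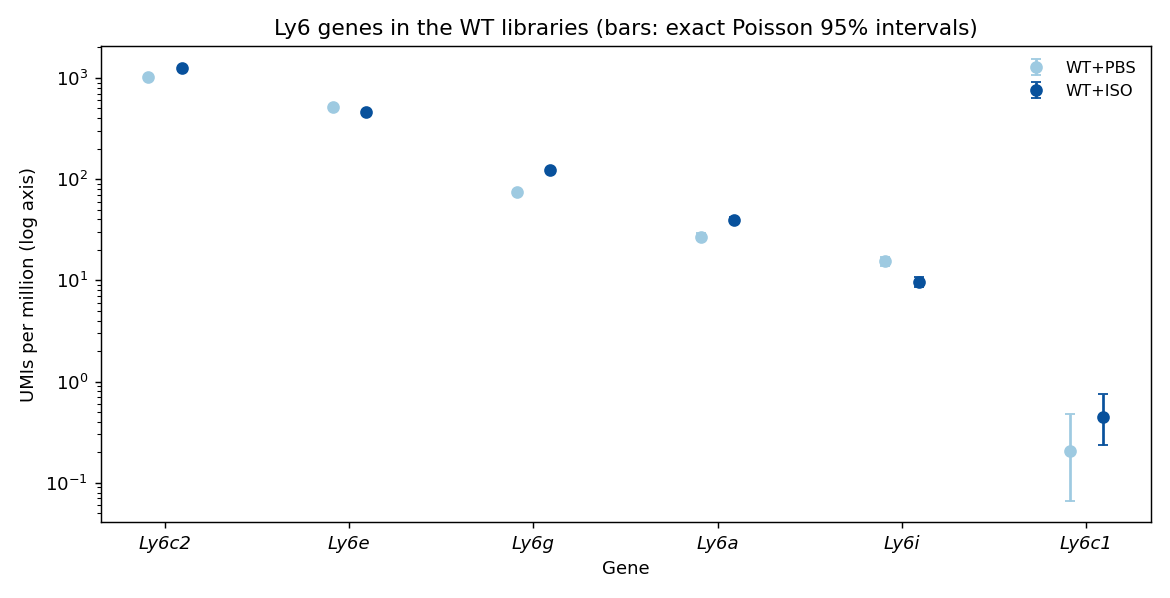
CPM of the 6 Ly6 genes (log axis) in the 2 WT libraries, with exact Poisson 95% intervals that cover counting error only. Ly6c2, Ly6g and Ly6a are higher in WT+ISO, Ly6e and Ly6i are higher in WT+PBS, and Ly6c1 stays below 1 CPM in both.

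Ly6c1 and Ly6c2 are close copies, and a read that maps equally well to more than 1 gene is dropped by Cell Ranger. Of the 90-base words in the last 500 bases of their protein-coding transcripts in a GENCODE annotation of GRCm39 (not the annotation the authors used), 14.6% of those of Ly6c1 also occurred in Ly6a or Ly6c2, and 8.52% of those of Ly6c2 in Ly6c1. For Ly6a the share was 20.4%, with Ly6c1 and Gm28068, and for Ly6g, Ly6e and Ly6i it was 0%. The levels of Ly6c1, Ly6c2 and Ly6a are uncertain on this account. These shares count words of annotated transcripts and do not measure the share of reads dropped. Whether the few UMIs counted as Ly6c1 came from Ly6c2 was not tested.

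The cells were clustered with the Ly6 genes left out, so that their levels by cluster are not a product of the clustering. All 9303 cells of the 4 libraries entered it, and the names, leading genes and marker counts of the clusters rest on all of them. The levels and cell numbers below are those of the 4474 cells of the WT libraries. 8 clusters were found, and names with "like" rest on marker genes alone. Cluster 0 (743 cells, leading genes Mrc1 and C1qb) was named macrophage-like from the cells of all 4 libraries. There 4 of 7 macrophage markers and 6 of 8 monocyte markers were in at least 10% of its cells, and no monocyte marker was among its leading genes. Of its 743 WT cells, 682 had a UMI of the monocyte receptor gene Ccr2, against 61 with a UMI of a C1q gene. For the WT cells the name is thus only a label, and most of them carried this monocyte gene. Clusters 1 (929 cells, Ltf) and 4 (608 cells, Camp and Ngp) were specific-granule neutrophil-like, and cluster 3 (486 cells, Retnlg and Mmp9) was mature neutrophil-like. The 341 cells of cluster 6, led by Mpo, were progenitor-like with genes of the azurophil granules, and the 53 cells of cluster 7, led by Fscn1 and Ccr7, were dendritic-like. Cluster 2 (889 cells, Gpnmb and Acod1, the latter the gene of the enzyme that makes itaconate) and cluster 5 (425 cells, Serpina3g and Muc13 among its leading genes) stayed unnamed, cluster 2 with few UMIs per cell (median 3245) and cluster 5 with many (median 23008). Cluster 2 held 6 of 7 mature-neutrophil markers in at least 10% of its cells, at a mean log2 ratio of 1.27. None of these was among its 10 leading genes, so it was not named by them.

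Ly6g was highest in neutrophil-like clusters. It was counted at 739 CPM in mature neutrophil-like cluster 3, 360 in cluster 1, 102 in cluster 4 and 17.7 in the progenitor-like cluster 6. The unnamed cluster 2, at 50.5 CPM, stood above cluster 6. Clusters 1 and 3 held 41.2% and 33.1% of all its UMIs. In the macrophage-like cluster it was at 5.05 CPM, or 0.683% of its level in cluster 3, and there 4.98% of cells had a UMI (median depth 16875), against 72.2% in cluster 3 (median depth 4778). After thinning of each cell to 2000 UMIs the shares were 1.48% and 56.5%. Retnlg, which also marks mature neutrophils, was in the macrophage-like cluster at 0.102% of its level in cluster 3. Of the other granule and neutrophil genes read there, Ltf was at 0.692% of its highest level, Camp at 0.826%, Ngp at 1.23% and Lcn2 at 7.05%. S100a9 was at 16.7%, S100a8 at 22.0% and Mmp8 at 33.9%. The highest level was in cluster 3 for Mmp8 and in cluster 1 for the rest of these. The shares are thus taken against different clusters, and no source of the UMIs is read from them. The part of free RNA in these UMIs was not tested.

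Ly6c2 was spread more widely than Ly6g. It was counted at 1772 CPM in cluster 3, 1693 in cluster 1, 1533 in cluster 6, 1369 in cluster 4 and 1178 in the unnamed cluster 5. The macrophage-like cluster had 588 CPM and cluster 2 had 474, and the dendritic-like cluster, at 84.8 CPM or 4.78% of the highest, was the only one under 100 CPM. The progenitor-like and the 3 neutrophil-like clusters all stood above the macrophage-like one. Within the macrophage-like cluster the level differed with the markers a cell carried. Cells with a C1q UMI and none of Ccr2 (9 cells) had 63.9 CPM, cells with both (52 cells) 224 CPM, and cells with Ccr2 alone (630 cells) 609 CPM. C1q genes are typical of tissue macrophages and Ccr2 of monocytes, so the level of Ly6c2 was lower where the macrophage genes were present. Of these, 7 of the 9 and 47 of the 52 came from WT+PBS, and in the 5 cells of WT+ISO that held both genes the level was 584 CPM. In cells with neither (52 cells), Ly6c2 was counted at 824 CPM.

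Ly6a was unevenly distributed over clusters. It was at 149 CPM in the dendritic-like cluster, 94.8 in cluster 2, 91.0 in the macrophage-like cluster and 48.1 in cluster 3, and between 1.16 and 2.57 CPM in the other four. The macrophage-like cluster held 64.0% of its UMIs and 16.6% of the cells. Ly6e was found in every cluster, with 708 CPM in the macrophage-like cluster, 645 in cluster 5, 626 in cluster 2 and 154 in cluster 1, where it was lowest. Ly6i was highest in cluster 2 at 74.1 CPM, followed by 29.2 in cluster 3 and 14.5 in the macrophage-like cluster, with no other cluster above 6.42 CPM.

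**Figure D2:**
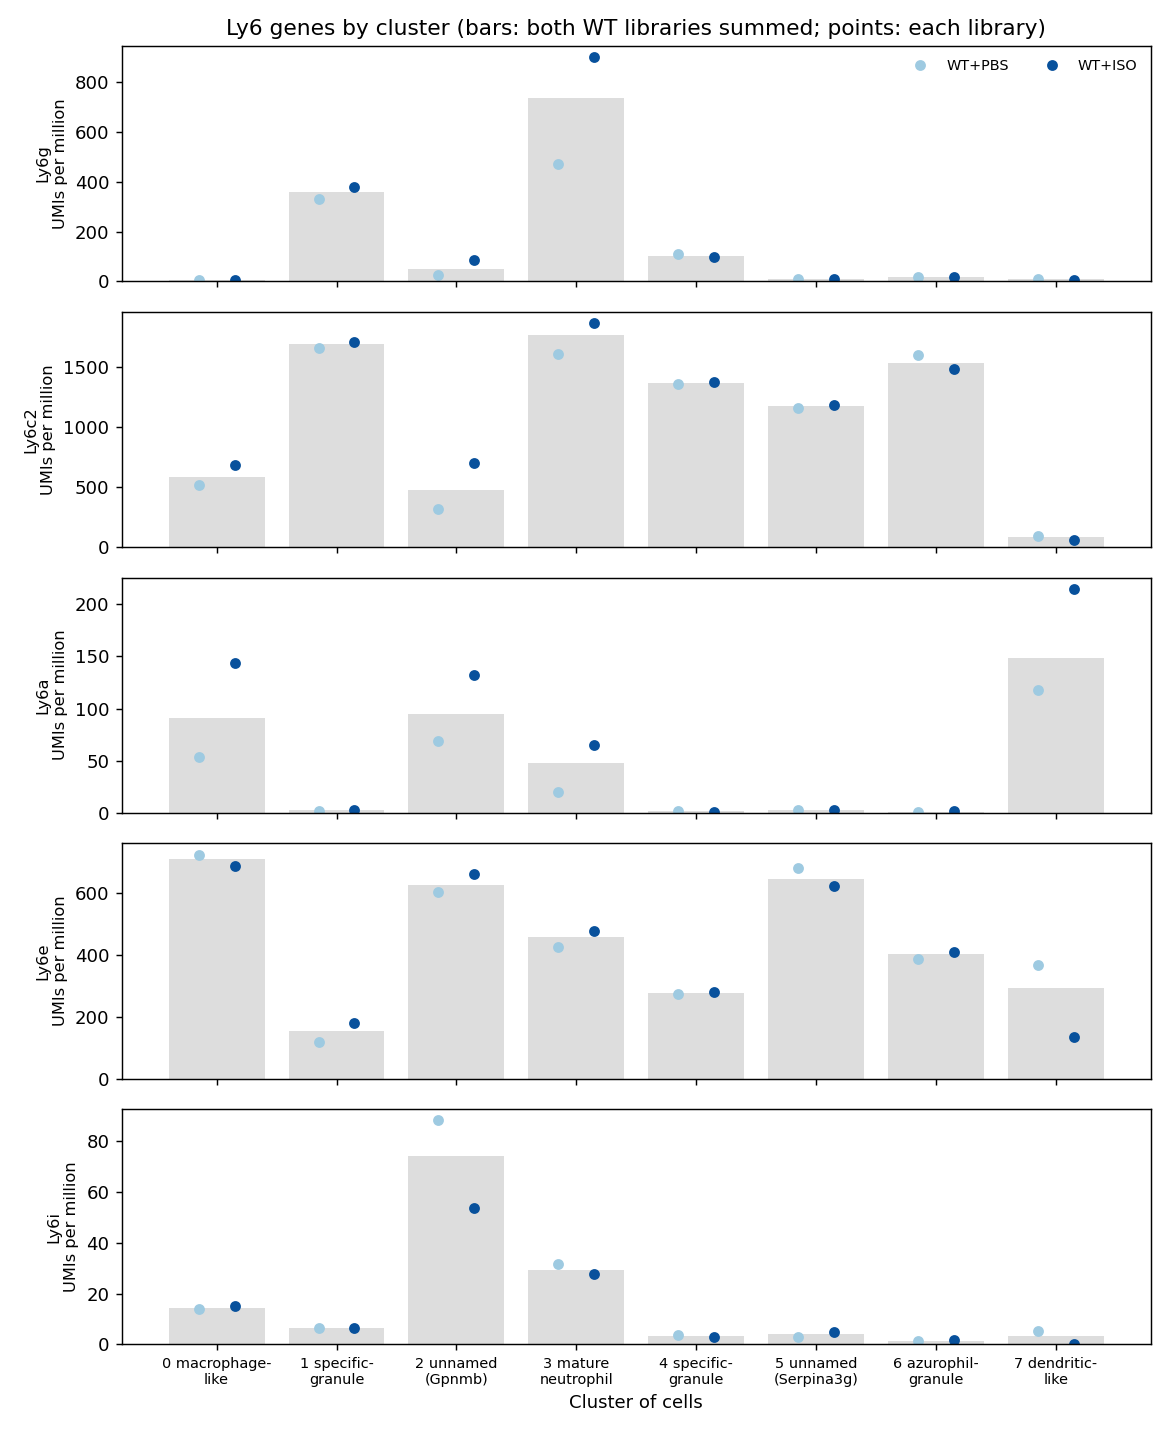
CPM of 5 Ly6 genes in each of 8 clusters, as bars for the 2 WT libraries summed and points for each library. Ly6g stands highest in clusters 1 and 3, Ly6c2 in all but clusters 0, 2 and 7, Ly6a in clusters 0, 2 and 7, Ly6e in clusters 0, 2 and 5, and Ly6i in cluster 2.

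Across the 15 sums of a cluster in a WT library with at least 30 cells, the genes whose log2(CPM + 1) followed each member most closely among 9652 genes were Mgam (Pearson r = 0.976), Ceacam10 (0.971) and Tinagl1 (0.962) for Ly6g, and Cldn15 (0.951), Mcm3ap (0.938) and Trem3 (0.926) for Ly6c2. For Ly6a they were Ifi209 (0.965), Spopl (0.964) and Jaml (0.953), for Ly6e Faim (0.942), Dynll1 (0.939) and Arf6 (0.933), and for Ly6i Hgsnat (0.981), Akap7 (0.975) and Rab11fip5 (0.974). Ly6a and Ly6i ran together (r = 0.774), Ly6c2 and Ly6a apart (r = -0.649), and Ly6g and Ly6c2 only loosely together (r = 0.502). These points share libraries and cell types, so r is a description of the clusters and not of independent samples. By Spearman rho Mgam stayed among the 3 most alike for Ly6g, and none of the 3 genes named for any of the other 4 members did.

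Joint counts per cell show how the 2 stained genes met in single cells. Cells with a UMI of both Ly6g and Ly6c2 were 27.9% (26.1 to 29.8) of those in WT+PBS, compared with 38.9% (36.9 to 40.9) in WT+ISO. Ly6c2 without Ly6g was found in 2239 of the 4474 cells and neither in 15.9%. Ly6g without Ly6c2 was found in 27 cells (0.603%), and 98.2% of cells with Ly6g also held Ly6c2, against 75.9% of cells without Ly6g. At their own depth, cells with Ly6g were thus nearly a subset of the cells with Ly6c2. Thinned to 2000 UMIs per cell, which left out 181 shallower cells without ISO and 127 with it, the share with both was 14.1% in WT+PBS, compared with 21.1% in WT+ISO, and 1.49% of cells held Ly6g alone. WT+ISO stayed above WT+PBS. The overlap depended on depth: of cells with Ly6g, 92.2% also held Ly6c2 when thinned to 2000 UMIs and 76.7% when thinned to 1000, where 2.80% of cells held Ly6g alone.

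Ly6c2 was also higher where Ly6g was. Its level was 986 CPM in cells with no UMI of Ly6g, 1376 with 1, 1528 with 2 to 4 and 1903 with 5 or more, and the same order held in each library. The cells with 5 or more were shallower (median depth 6932) than those with none (11340). With all clusters pooled, the cells richest in Ly6g transcripts were thus also the richest in those of Ly6c2 for their depth. Clusters 1 and 3, which held most of the Ly6g UMIs, also stood highest in Ly6c2, at 1693 and 1772 CPM. Whether the order holds within a cluster was not tested. The odds ratio of the pair was 20.8 (11.9 to 36.5) in WT+PBS, compared with 12.6 (7.30 to 21.8) in WT+ISO, and these intervals overlapped. They come from the standard error of the log odds ratio and treat cells as independent. Only 13 and 14 cells held Ly6g alone. After thinning to 2000 UMIs the odds ratios were 6.36 and 3.70. All these odds ratios pool the clusters. Within the neutrophil-like clusters the thinned values were lower, at 1.99 in cluster 1, 2.87 in cluster 3 and 0.705 in cluster 4 with 2000 UMIs, and 0.987, 1.49 and 1.90 with 1000. Cluster 2 stood higher, at 3.80 with 1000 UMIs, and at 2000 UMIs it held 35 cells with both, 9 with Ly6g alone, 185 with Ly6c2 alone and 428 with neither. By cluster and at the cells' own depth, the share with both was 70.2% in cluster 3, 62.8% in cluster 1, 54.8% in cluster 4, 25.2% in cluster 6 and 4.98% in the macrophage-like cluster. Depth differed between these clusters. Thinned to 2000 UMIs, the shares in the same order were 52.5%, 38.0%, 15.6%, 3.56% and 0.945%.

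**Figure D3:**
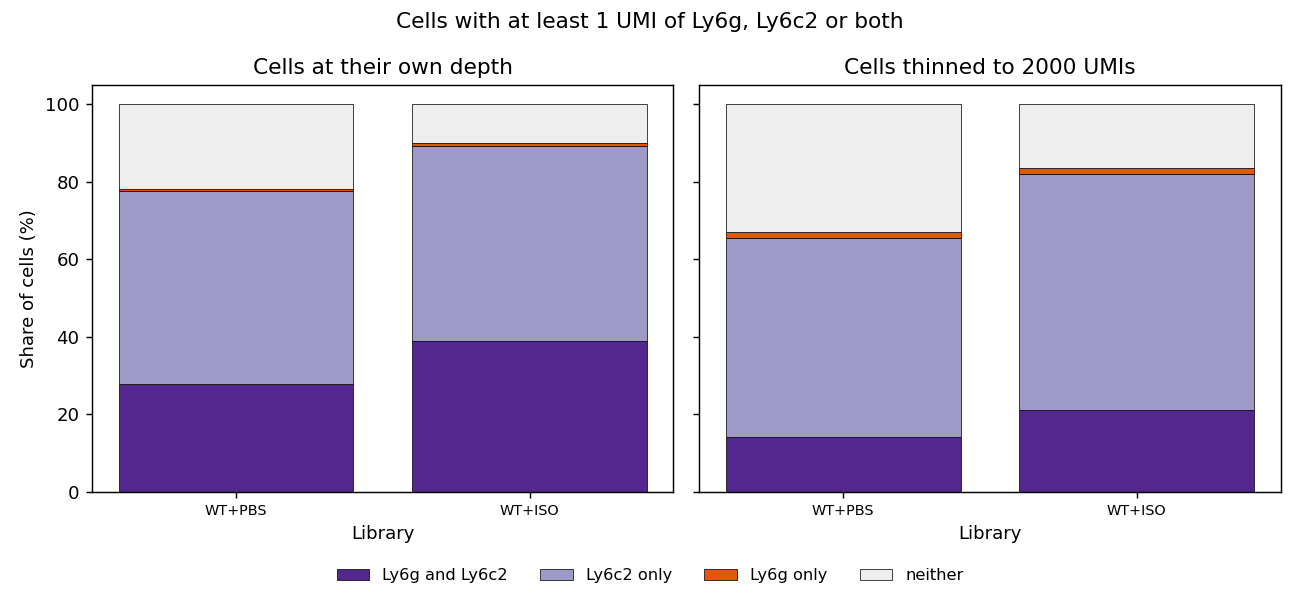
Share of cells with at least 1 UMI of Ly6g and Ly6c2, of Ly6c2 only, of Ly6g only and of neither, in the 2 WT libraries, at each cell's own depth and after thinning to 2000 UMIs. Cells with both are 27.9% and 38.9% at own depth and 14.1% and 21.1% after thinning, and cells with Ly6g only form a thin band in all.

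The comparison of ISO over PBS in WT cells asks what differs with isoproterenol in otherwise unaltered cells. A gene with at least 50 UMIs in the 2 libraries was called past the fold where its CPM differed by at least 1.5 times. This held for 2 of the 5 members with enough UMIs, Ly6g and Ly6i, against 8.48% of all genes. Ly6g was higher with ISO by 0.73 on the log2 scale (0.65 to 0.82), and Ly6i was lower, with a log2 ratio of -0.68 (-0.91 to -0.46). Ly6a, at 0.55 (0.42 to 0.69) or 1.47-fold, lay just outside the limit, and passed it by median-of-ratios size factors or with the 20 most abundant genes left out of the totals. Ly6c2 differed by 0.30 (0.28 to 0.32) and Ly6e by -0.17 (-0.20 to -0.13). The median over the 5 members was 0.30 and over all genes -0.02. Whether any of these exceeds the spread between cultures was not tested.

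Cell composition moved with these values. The macrophage-like cluster made up 20.4% of WT+PBS and 12.9% of WT+ISO. Cluster 2, which also held mature-neutrophil markers, made up 25.1% and 14.8%. Clusters 1, 3, 4 and 6, named by neutrophil or progenitor markers, were each larger with ISO, and so was the unnamed cluster 5 (8.05% and 10.9%). Whole libraries cannot separate more cells of a type from more RNA per cell, so the ratios were taken within clusters. In mature neutrophil-like cluster 3, Ly6g was counted at 472 CPM (429 to 519) in WT+PBS, compared with 902 (855 to 951) in WT+ISO, a log2 ratio of 0.93 (0.78 to 1.09). In cluster 1 the ratio was 0.19 (0.06 to 0.31), in cluster 4 -0.18 (-0.37 to 0.02) and in cluster 6 -0.01 (-0.50 to 0.48). In the macrophage-like cluster it was -1.13 (-2.05 to -0.29) on 16 and 49 UMIs, the only one of 7 with an interval below 0. The largest ratio, 1.76 (1.30 to 2.24), was in cluster 2 on 132 and 56 UMIs. There 9 of 334 cells held 49.2% of the Ly6g UMIs of WT+ISO, and 1 of 555 cells of WT+PBS held 5 or more. The median of the 7 clusters with at least 50 UMIs was -0.01. With cluster shares held fixed at their mean over the 4 libraries of the series, Ly6g differed by 0.57, just under the limit of 1.5-fold. These are shares of cells, whereas the whole-library ratio weights clusters by their UMIs, so the weighting changed as well. As a mean over cells, without fixed shares, Ly6g differed by 0.85.
Ly6a went the other way: its ratios within clusters were above that of the whole library. It was higher with ISO in 4 of 4 clusters with at least 50 UMIs, by 1.43 (1.25 to 1.61) in the macrophage-like cluster, 0.93 in cluster 2, 1.74 in cluster 3 and 0.87 in the dendritic-like cluster, and by 1.21 with cluster shares held fixed. Of these, the macrophage-like cluster, cluster 2 and the dendritic-like cluster made up smaller shares of WT+ISO than of WT+PBS. Few cells carried these ratios. In cluster 3, 4 cells held 71.7% of the 99 UMIs of WT+ISO, and none of WT+PBS had 5 or more. WT+PBS had 18 UMIs there, so cluster 3 reached 50 UMIs only through WT+ISO. In the dendritic-like cluster 3 of 16 cells held 98.3% of the UMIs of WT+ISO. In cluster 2 a UMI was found in 9.58% of cells with ISO and 10.3% without, so the share of cells did not rise with the level. The clusters with fewer than 50 UMIs of Ly6a differed by 0.52 (cluster 1), -0.81 (cluster 4), 0.18 (cluster 5) and 1.37 (cluster 6). Their intervals all held 0, so the count of 4 covers only the clusters that the filter kept. Ly6i differed by -0.72 (-1.11 to -0.34) in cluster 2, where it was highest, and by 0.09 (-0.34 to 0.53) in the macrophage-like cluster, and with cluster shares held fixed its ratio of -0.44 was no longer past the limit. Weighted equally per cell, Ly6a differed by 0.15 in place of 0.55. Ly6c2 differed by between -0.10 and 0.22 in clusters 1, 3, 4, 5 and 6, and by 1.16 (1.02 to 1.30) in cluster 2 and 0.41 (0.34 to 0.48) in the macrophage-like cluster. In the dendritic-like cluster it was counted on 17 UMIs with ISO and 56 without, and differed by -0.63 (-1.50 to 0.18).
Ly6e, the member with the smallest ratio over whole libraries, differed in opposite directions within clusters. It was higher with ISO by 0.60 (0.40 to 0.80) in cluster 1, where it was lowest, and by 0.13 (0.01 to 0.25) in cluster 2. In the macrophage-like cluster it differed by -0.08 (-0.14 to -0.02), in cluster 5 by -0.13 (-0.20 to -0.06) and in the dendritic-like cluster by -1.45 (-1.99 to -0.94), the last from 16 cells with ISO and 37 without. The median over 8 clusters was 0.06, and with cluster shares held fixed the whole-library ratio of Ly6e was 0.05 in place of -0.17. As a mean over cells, without fixed shares, it was -0.19.

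**Figure D4:**
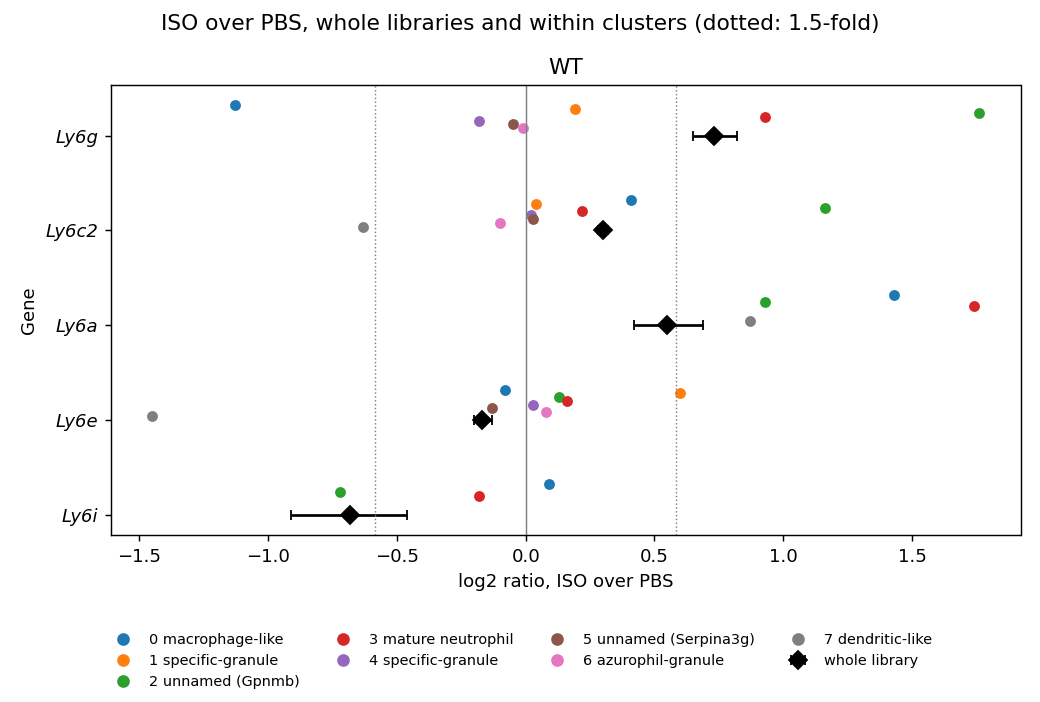
Log2 ratio of ISO over PBS for 5 Ly6 genes in WT, for whole libraries (diamonds, exact 95% intervals) and within each cluster with at least 50 UMIs of the gene (circles). Dotted lines mark 1.5-fold. Ly6a has all 4 of its clusters to the right of its whole-library value, and Ly6g has 5 of its 7 to the left.

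Single cells rich in Ly6a carried most of its RNA. A UMI of Ly6a was found in 380 cells, and the 102 cells with 5 or more (2.28% of all cells) held 76.6% of its UMIs, with up to 53 in a cell. In the macrophage-like cluster, cells with 5 or more were 27 of 450 in WT+PBS, compared with 38 of 293 in WT+ISO. All cells of that cluster together had median depths of 15911 and 17760 UMIs in these libraries. The share of rich cells was higher with ISO, and 74.3% of the cells in that cluster had no Ly6a at all. The summed level of 10 dendritic-cell markers was 3722 CPM in the 65 rich cells of that cluster, with 1 marker at 0, and 848 CPM in its 552 cells without Ly6a. The summed level of 7 macrophage markers was 562 and 259 CPM, and that of 8 monocyte markers 1349 and 1354 CPM. The 8 specific-granule markers summed to 1660 and 4395 CPM, and the 7 mature-neutrophil markers to 3257 and 1725 CPM. In cluster 2 the dendritic-cell markers summed to 962 CPM in the 22 rich cells, with 7 of the 10 at 0, and to 900 CPM in the 800 cells without Ly6a. The mature-neutrophil markers there summed to 7308 and 4553 CPM and the specific-granule markers to 7283 and 7117 CPM. The monocyte markers summed to 163 and 290 CPM and the macrophage markers to 129 and 135 CPM. Rich cells and those without Ly6a also differed in library. WT+ISO gave 38 of the 65 rich macrophage-like cells and 13 of the 22 in cluster 2. Most cells without Ly6a came from WT+PBS in both clusters. Their shares there were 78.0% and 89.7%, against 68.6% and 90.4% with ISO. The sums are not split by library or by gene here, so a few abundant genes may carry a sum. The part of these markers, or of the library, in the Ly6a values was not tested. Ly6g was less concentrated than Ly6a, with 61.0% of its UMIs in the 8.38% of cells that held 5 or more. Ly6i had 10.9% of its UMIs in 11 such cells, 0.246% of all cells. With only 660 UMIs in 460 cells, few cells could reach 5, so this cut does not set the spread of Ly6i against that of Ly6g.

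Most other genes of the wider Ly6 and uPAR family had few UMIs or none. Of the 39 genes listed, 38 were in the tables and 18 had no UMI in either WT library. In all, 8 reached 100 UMIs over both, the 5 members above and 3 others. Of all 32285 genes, 11852 had at least 50 UMIs over both, and the share of all genes with none was not taken. None of the 3 others was past 1.5-fold, against 8.48% of those 11852 genes, so so few genes say nothing about the family. Cd177, the gene of a neutrophil surface glycoprotein, was counted at 232 CPM (226 to 238) in WT+PBS, compared with 335 (329 to 342) in WT+ISO, a log2 ratio of 0.53 (0.48 to 0.58). Like Ly6g it stood highest in clusters 1 (970 CPM) and 3 (893 CPM), with 569 CPM in cluster 4. Within these its log2 ratio was -0.03 (-0.10 to 0.05) in cluster 1, 0.09 (-0.03 to 0.22) in cluster 3 and 0.36 (0.27 to 0.44) in cluster 4. Over the 7 clusters with at least 50 UMIs of Cd177 the median was 0.36. Cd177 was also 1 of the 8 specific-granule markers used to name clusters 1 and 4. Plaur, the gene of the urokinase receptor, was counted at 182 CPM in WT+PBS, compared with 171 in WT+ISO, with a log2 ratio of -0.09 (-0.15 to -0.04). Lypd6b had 58 and 62 UMIs and differed by -0.17 (-0.71 to 0.37).

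Ly6a and Ly6e are known to be raised by interferon, and a list of interferon-response genes was read beside them. Past 1.5-fold were 2 of 18 of its genes with at least 50 UMIs, against 8.48% of all genes. These were Ifit1 at 0.86 (-0.03 to 1.81) and Oas1a at 0.60 (0.27 to 0.94), both named after their values were seen. The median over the list was 0.14, against 0.55 for Ly6a and -0.17 for Ly6e.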

How the data were processed

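For each barcode kept as a cell, the authors deposited the raw UMI count of every gene. Cell Ranger is given as 7.0.0 in the file headers and 6.0.0 in the submitters' processing notes, which also name Seurat and the build mm10. The treatment of introns is not given in the sources used here. The 12 multiplexing tags were kept out of all gene levels and read only to see which tag each library carried. A cell was used if it had 200 or more genes and no more than 10% of its UMIs from mitochondria, which left 9303 of 9525. Leiden clustering (scanpy 1.11.5, leidenalg 0.10.2) was run on 2000 variable genes, 30 principal components and 15 neighbours at resolution 0.4. It left out the Ly6 and interferon lists and took the 4 libraries together. Cluster names, leading genes, marker counts, fixed cluster weights, median-of-ratios size factors and the counts of filtered and doublet cells also used the 4 libraries. The levels and ratios of genes printed here, and the shares of cells with a UMI, were taken from the 2 WT libraries. To name a cluster, 3 markers had to be present in 10% of its cells, 1 of them had to be among its 10 leading genes, and their log2 ratios to the other cells had to average 1 or more. Scrublet called 20 cells doublets (0.215%), too few for the caller to have worked, so doublets were kept and may be among cells with many UMIs. The code for ratios and intervals was run on simulated independent Poisson counts, for which such intervals hold by construction. The gathering of UMIs in single cells was not simulated, so the run says nothing on the width of the intervals for these cells.

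The genes named were the 6 members, family genes with at least 100 UMIs over the 4 libraries, the 3 genes most like each member, and the markers and leading genes of clusters. The leading gene of cluster 5 and the comparisons between genotypes are not reported here. The members were listed by symbol, with no threshold on their values, but this list and the others were chosen with earlier results of these data known. Promoters were read from RefSeq tables of GRCm38.p6. Alternatives were other cell filters, scalings, weights, clusterings and depths.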

Additional observations from a re-analysis of the deposited data

How the results depend on the processing

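No paired analysis was possible because there is only 1 library in each group and no result comes from a test. Counting error is the only error that the intervals of levels and ratios cover, and the spread between cells was not put into them. A gene under 50 UMIs over both libraries has a wide interval and was not called. Of the log2 ratios of members for ISO in WT, 36 stayed within their main interval under an alternative and 17 left it. Some alternatives could hardly move a ratio. Leaving out called doublets removed 4 cells of WT+PBS and 7 of WT+ISO, and using no filter gave 2232 and 2300 cells. The count of 36 is therefore no measure of stability. Ly6g, at 0.73, was 0.57 at fixed cluster weights and 0.85 both as a mean over cells and thinned to 2000 UMIs. Ly6c2, at 0.30, was 0.35 by median-of-ratios size factors, 0.34 without the 20 most abundant genes, 0.41 as a mean over cells, 0.19 at fixed weights and 0.43 thinned. Ly6e, at -0.17, turned to 0.05 at fixed weights, and Ly6c1, on 5 and 13 UMIs, from 1.11 to -1.07 thinned. Ly6i, at -0.68, was -1.09 thinned, and Ly6a, at 0.55, ranged from 0.15 to 1.21.

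Members past 1.5-fold were 2 (Ly6g and Ly6i), 1 at fixed weights (Ly6a), and 3 (Ly6g, Ly6a and Ly6i) both by median-of-ratios size factors and without the 20 most abundant genes. The share of cells with both Ly6g and Ly6c2 in WT+PBS and WT+ISO was 15.9% and 25.0% with at least 2 UMIs of each, 14.1% and 21.1% thinned to 2000 UMIs, and 7.05% and 11.3% thinned to 1000. The share of all genes past 1.5-fold, 8.48%, was 5.09% among genes with at least 200 UMIs and 22.5% with no minimum beyond 1 UMI in each library. Of the cluster with the most Ly6g at resolution 0.25, 2.53% of cells lay in cluster 3, and the cluster with the most Ly6c2 changed under each of 4 alternatives. At resolution 0.8 the cluster with the most Ly6a held 0% of the dendritic-like cells. The cause of each shift was not tested. Fixed weights hold cluster shares equal, but they also weight each cluster by its cells, where the main ratio weights it by its UMIs. A shift at fixed weights therefore mixes these 2 changes.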
